A study of Caenorhabditis elegans with 12 samples.

Results

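The genes described here are 39 of the 46653 gene identifiers in the read-count table of this series, chosen by name as the parts of the muscle contractile machinery of *C. elegans*. They are 7 thick filament genes, 5 actin and tropomyosin genes, 6 troponin genes, 3 titin-like genes, 13 genes of the attachment sites and 5 genes for assembly factors, thin filament regulators and calcium release. All 39 passed the filter on low counts and were tested, among 16741 genes tested. RNA came from whole young adults of 4 strains grown at 20 °C, with 3 independent worm populations of each. The *age-1; rde-4* double mutant carries both *age-1(hx546)* and *rde-4(ne301)*. The *age-1* strain carries *age-1(hx546)*, which lowers insulin/IGF-1 signaling (IIS) moderately, and the *rde-4* strain carries *rde-4(ne301)*, a null allele of a protein that binds double-stranded RNA and works with Dicer in RNA interference. The wild type (WT) is N2. Worms were collected on the first day of adulthood, before they held embryos, so each library is 1 pool of animals with all their tissues. In such RNA, a change within muscle and a change in the share of RNA from other tissues cannot be told apart.

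Body-wall muscle of the worm is obliquely striated. Thick filaments of myosin, built around a paramyosin core, slide along thin filaments of actin that carry tropomyosin and troponin, the calcium switch of contraction. Thick filaments are held at M-lines and thin filaments at dense bodies, and both structures hang on integrins that grip the basement membrane between muscle and epidermis. From there, fibrous organelles in the epidermis pass the pull on to the cuticle. Loss of many of these proteins paralyses the animal (*unc* genes) or stops embryos at the stage when muscle first contracts (*pat* genes). Giant titin-like proteins span the filaments, and loss of one of them, twitchin, makes muscle twitch. The pharynx is a separate muscle with some proteins of its own, among them MYO-2 myosin and the troponin C encoded by *tnc-2*. IIS acts through the transcription factor DAF-16/FOXO, and long-lived IIS mutants are known for slower muscle decline in old age.

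The count tables held 74501098 to 82446102 counts per library. Levels are given as CPM, read counts scaled to the library total with TMM factors. Summed, the 39 members came to 0.803 to 0.853% of this TMM-scaled total in *age-1* and 0.616 to 0.740% in *age-1; rde-4*. The sum was 0.479 to 0.661% in *rde-4* and 0.479 to 0.717% in WT. Such percentages include the TMM factors, so they are not exact shares of the counts. The *rde-4* transcript stood at 28.1 ± 2.39 CPM in *age-1; rde-4* and 30.7 ± 1.77 CPM in *rde-4* (SD, n = 3), against 145 ± 6.53 CPM in *age-1* and 180 ± 19.2 CPM in WT. It was thus lower in both strains labelled *rde-4(ne301)*. The *age-1* transcript stood at 126 ± 38.1 CPM in *age-1; rde-4* and 131 ± 4.85 CPM in *age-1*. It had 145 ± 22.2 CPM in *rde-4* and 142 ± 14.6 CPM in WT, so its level did not tell the strains apart. The defining genes of body-wall muscle, *unc-54*, *myo-3* and *unc-15*, were found in every library. Populations of the same strain were not alike. Among WT libraries, replicate 2 was the highest for 35 of 39 members and replicate 1 the lowest for 34. In *rde-4*, replicate 2 was the highest for 36 and replicate 3 the lowest for 31. Over all 12 libraries, 34 members had their highest value in *age-1* (17, 14 and 3 in replicates 1, 2 and 3), while WT replicate 1 and *rde-4* replicate 3 each held the lowest value of 16.

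**Figure D1:**
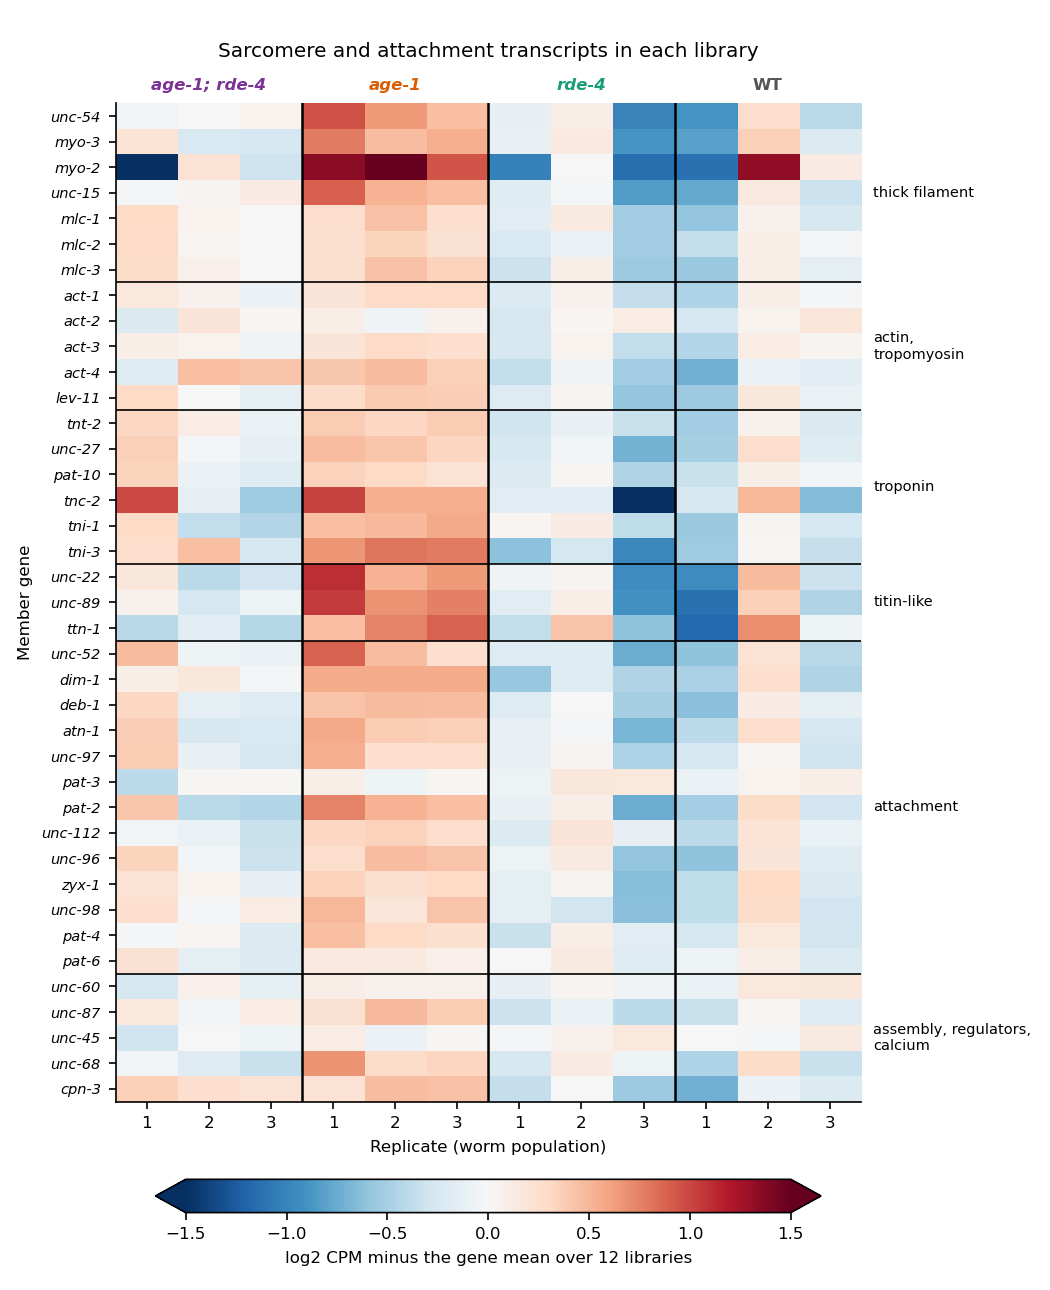
Level of each member (rows, grouped by role) in each of the 12 libraries (columns, 3 worm populations per strain), as log2 CPM minus the gene's mean over all libraries; red is above and blue below that mean, and values beyond ±1.5 are drawn in the end colours. The 3 *age-1* columns are red for nearly all members, the *age-1; rde-4* columns are mixed, and WT replicate 1 and *rde-4* replicate 3 are the bluest.

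Levels of different genes can be set side by side only per length, and here as CPM per kb of exon. In WT, *pat-10* (F54C1.7, chromosome I from 5018783 to 5020358 of WBcel235), the troponin C of body-wall muscle, had the highest level with 1149 CPM per kb, ahead of the regulatory myosin light chain *mlc-2* (628) and the troponin I gene *unc-27* (507). The main body-wall myosin heavy chain, *unc-54*, stood at 37.1 CPM per kb, and *myo-3*, the heavy chain of the filament centre, at 16.4. *unc-15*, paramyosin, was at 13.5. Among attachment genes the level was highest for *pat-3*, the beta integrin, with 82.7 CPM per kb in WT, and among titin-like genes for *unc-22*, twitchin, with 6.29. The lowest level of all was that of the pharyngeal myosin *myo-2*, with 0.413 CPM per kb. Long transcripts stood low in this order. Across the 39 members, exonic length and CPM per kb had a Spearman rho of −0.56 in WT and −0.57 in *age-1*, as a description over genes that share the same libraries. Length is also the divisor of CPM per kb and counts the exons of all annotated transcripts, so a negative value may be partly built in.

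The *age-1* strain had higher levels of many muscle transcripts than WT. In *age-1* against WT, 11 of 39 members were higher and 0 were lower at an adjusted p under 0.05 (edgeR quasi-likelihood test, Benjamini-Hochberg over all 16741 genes). This is 28.2% of the members, beside 12.2% of all genes called higher and 2.58% called lower. The median log2 fold change was 0.55 over the members and 0.03 over all genes tested, and 37 members lay above 0, beside 52.0% of all genes. At an unadjusted p under 0.05, 30 members were higher and 0 lower, beside 21.1% and 12.2% of all genes. All *age-1* libraries lay above all WT libraries for 30 of 39 members, beside 23.7% of all genes, and below them for 0, beside 17.8%. Every role had called members, with 2 of 7 for the thick filament, 1 of 5 for actin and tropomyosin, 3 of 6 for troponin, 1 of 3 for the titin-like genes, 2 of 13 for attachment and 2 of 5 for the last group. Fold changes were moderate, and the called ones ran from 0.53 to 1.11 on the log2 scale.

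The number of calls rested on single libraries. Without WT replicate 1, without WT replicate 3 or without *age-1* replicate 2 the same test called 0 members, with 16, 20 and 22 of them at an unadjusted p under 0.05. The share of all genes called higher was 2.30%, 1.79% and 2.11% in these fits. Without *age-1* replicate 1 or 3, 3 members were called in each fit, beside 7.43% and 6.74% of all genes. Without *age-1; rde-4* replicate 1, a library of neither group, 18 were called, beside 13.6% of all genes. Without WT replicate 2, the WT library with the highest muscle levels, 27 of 39 were called, beside 17.1% of all genes. The median log2 fold change of the members stayed between 0.44 and 0.73 whichever of the 12 libraries was left out. Of single members, *deb-1* lost its call in 9 of these 12 fits and *unc-54* in 7, and each of the other called members in 3 to 6. DESeq2 called 17 members, among them the 11 of edgeR, beside 15.8% of all genes.

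**Figure D2:**
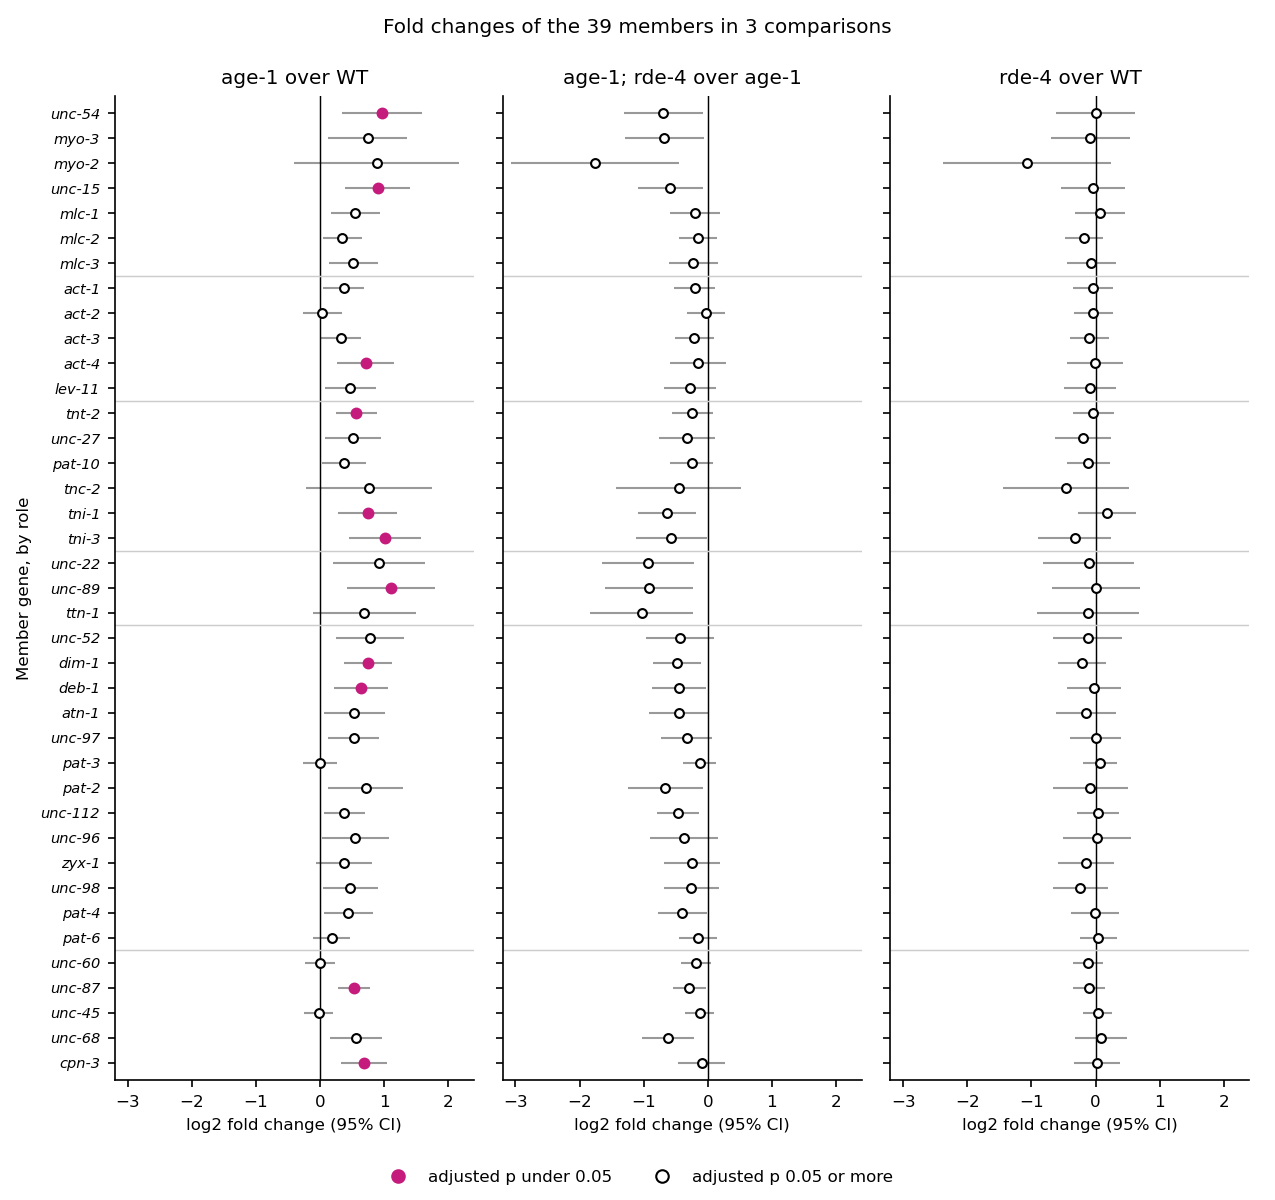
Fitted log2 fold change (points) with its 95% confidence interval (bars) for each of the 39 members in *age-1* over WT, *age-1; rde-4* over *age-1* and *rde-4* over WT; filled points have an adjusted p under 0.05. In the left panel 37 points lie above 0 and 11 are filled, in the middle panel all 39 lie below 0 with none filled, and in the right panel 11 lie above 0 with none filled.

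Of the 7 thick filament genes, 2 rose in *age-1*. *unc-54* (F11C3.3, chromosome I from 14855901 to 14863482), whose product makes up most of the body-wall thick filament, was at 535, 432 and 379.9 CPM in *age-1* replicates 1, 2 and 3, against 149, 331 and 210.1 CPM in WT (log2 fold change 0.96, SE 0.29, adjusted p = 0.0421). The groups did not overlap, and WT replicate 2 came nearest to *age-1*. *unc-15* (F07A5.7, chromosome I from 7376604 to 7383197), paramyosin, was at 103.6, 79.7 and 76.0 CPM in *age-1* and 32.8, 61.6 and 44.4 CPM in WT (log2 fold change 0.90, SE 0.23, adjusted p = 0.0266), again with WT replicate 2 as the nearest library. In *age-1; rde-4* these genes held nearly even levels, with 269, 276 and 287 CPM for *unc-54* and 54.7, 57.4 and 60.6 CPM for *unc-15*. The *rde-4* libraries gave 253, 298 and 139 CPM and 48.9, 54.9 and 31.1 CPM, with replicate 3 far below the others. *myo-3* had a log2 fold change of 0.74 in *age-1* over WT (adjusted p = 0.0916). The 3 light chain genes had smaller values, with 0.55 for *mlc-1*, 0.52 for *mlc-3*, the essential light chain, and 0.35 for *mlc-2*, at adjusted p-values of 0.0549, 0.0628 and 0.102. *mlc-2* was at 502, 538 and 499 CPM in *age-1* and 331, 458 and 418 CPM in WT, so its groups did not overlap. It had 522, 434 and 429 CPM in *age-1; rde-4* and 364, 403 and 298 CPM in *rde-4*. The light chain genes *mlc-1* and *mlc-2* are near-identical neighbours, so their reads may be shared between them.

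Pharyngeal *myo-2* (T18D3.4, chromosome X from 12468061 to 12475348) was the least even member. Its levels were 4.93, 5.82 and 3.72 CPM in *age-1*, against 0.882, 4.87 and 2.10 CPM in WT, where replicate 2 lay within the *age-1* range. In *age-1; rde-4* it stood at 0.479, 2.24 and 1.55 CPM and in *rde-4* at 0.952, 1.91 and 0.871 CPM. Its highest library was 12.2 times its lowest, and the log2 fold change of 0.88 in *age-1* over WT had a 95% interval of −0.40 to 2.16 (adjusted p = 0.322). The other pharyngeal member, *tnc-2* (ZK673.7, chromosome II from 10466852 to 10468358), ranged 6.48-fold over the libraries. It was at 9.30, 6.70 and 6.72 CPM in *age-1* and 3.87, 6.53 and 2.95 CPM in WT, with WT replicate 2 just under the lowest *age-1* library (log2 fold change 0.77, SE 0.45, adjusted p = 0.261).

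The 4 actin genes did not share 1 pattern. *act-4* (M03F4.2, chromosome X from 4960621 to 4964413) rose in *age-1*, with 40.2, 42.1 and 38.98 CPM against 18.4, 28.4 and 27.3 CPM in WT (log2 fold change 0.71, SE 0.20, adjusted p = 0.0356). It was also high in replicates 2 and 3 of *age-1; rde-4*, with 26.6, 41.3 and 40.8 CPM, while *rde-4* gave 23.4, 29.3 and 21.1 CPM. The neighbours *act-1*, *act-2* and *act-3* lie within a short stretch of chromosome V (from 11071690 to 11082415). *act-1* (T04C12.6, chromosome V from 11081052 to 11082415) was at 269, 289 and 288 CPM in *age-1* and 171, 253 and 232 CPM in WT (log2 fold change 0.37, SE 0.15, adjusted p = 0.102). It had 264, 247 and 223 CPM in *age-1; rde-4* and 204, 248 and 184 CPM in *rde-4*. *act-3* (T04C12.4, chromosome V from 11071690 to 11074498), which served the study as the qPCR normalization gene, was at 278, 296 and 289 CPM in *age-1* and 178, 261 and 249.9 CPM in WT (log2 fold change 0.33, SE 0.14, adjusted p = 0.132). All *age-1* libraries lay above all WT libraries for both genes, by a margin that did not pass the adjusted threshold. Its levels were 259.7, 252 and 234 CPM in *age-1; rde-4* and 206, 251 and 187 CPM in *rde-4*, where replicates 1 and 3 were low. *act-2* (T04C12.5, chromosome V from 11076777 to 11078154) had the highest level per length of the actin genes, 296 CPM per kb in WT, and overlapping groups. It was at 406, 366 and 396 CPM in *age-1* and 317, 393 and 429 CPM in WT (log2 fold change 0.04, 95% interval −0.26 to 0.34), and this near-zero value turned to −0.01 with the scaling of DESeq2 (RLE). In *age-1; rde-4* it gave 326, 435 and 388 CPM and in *rde-4* 318, 388 and 408 CPM. The ratio of *act-1* to *act-3* per length was even in all strains (1.21 ± 0.039 in *age-1; rde-4*, 1.21 ± 0.017 in *age-1*, 1.22 ± 0.0066 in *rde-4* and 1.17 ± 0.025 in WT, SD, n = 3). Actin genes are near-identical copies and how StringTie split shared reads between them is not known here, so single values are uncertain.

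Tropomyosin, *lev-11*, had a log2 fold change of 0.48 in *age-1* over WT (adjusted p = 0.0969). Troponin had the largest share of called members, with 1 troponin T and 2 troponin I genes. *tnt-2* (F53A9.10, chromosome X from 8721546 to 8723550), a troponin T that ties the complex to tropomyosin, was at 54.3, 51.8 and 54.2 CPM in *age-1* and 28.998, 43.5 and 35.6 CPM in WT (log2 fold change 0.57, SE 0.15, adjusted p = 0.0272). *tni-1* (F42E11.4, chromosome X from 11375887 to 11377470), a troponin I, the inhibitory subunit, was at 45.4, 46.6 and 49.3 CPM in *age-1* and 22.6, 34.3 and 27.6 CPM in WT (log2 fold change 0.74, SE 0.21, adjusted p = 0.0349). The groups stood clear of each other for both genes. *tni-3* (T20B3.2, chromosome V from 16833638 to 16835128), another troponin I, had the 2nd largest fold change of the called members although it was among the scarcest, with 3.21, 3.53 and 3.49 CPM in *age-1* against 1.40, 2.06 and 1.60 CPM in WT (log2 fold change 1.02, SE 0.26, adjusted p = 0.0255). Every *age-1* value of *tni-3* lay above those of all other strains. In the other strains, *tnt-2* had 51.6, 44.9 and 38.8 CPM in *age-1; rde-4* and 33.9, 38.4 and 33.1 CPM in *rde-4*. *tni-1* had 40.8, 25.8 and 24.4 CPM in *age-1; rde-4*, with replicates 2 and 3 at the WT level, and 33.9, 36.2 and 25.6 CPM in *rde-4*. The *tni-3* values were 2.43, 2.77 and 1.71 CPM in *age-1; rde-4* and 1.32, 1.68 and 1.03 CPM in *rde-4*. The 2 most abundant troponin genes missed the threshold. *pat-10* was at 1521, 1464 and 1388 CPM in *age-1* and 949, 1268 and 1158 CPM in WT (log2 fold change 0.37, SE 0.16, adjusted p = 0.116). It had 1503, 1119 and 1056 CPM in *age-1; rde-4* and 1034, 1208 and 877 CPM in *rde-4*. *unc-27* had a log2 fold change of 0.51 (adjusted p = 0.101), and its ratio to *pat-10* per length was 0.484 ± 0.0020 in *age-1* and 0.436 ± 0.060 in WT.

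**Figure D3:**
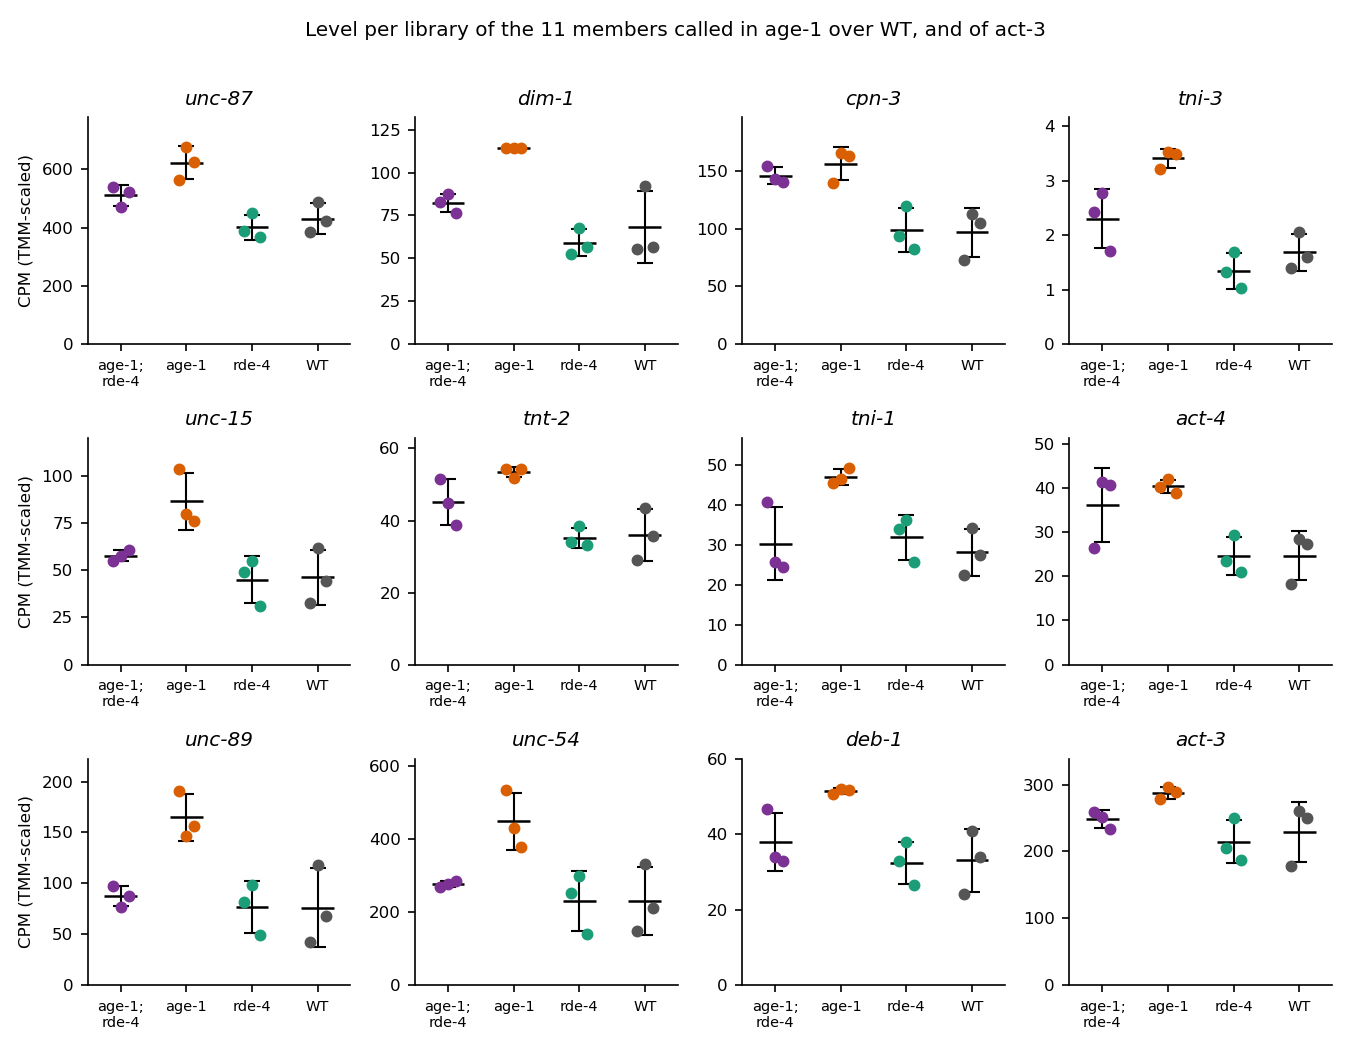
CPM (TMM-scaled, linear axis from 0) of the 11 members called in *age-1* over WT and of *act-3*, with 1 point per worm population and black bars for the mean and SD of 3 populations. In each panel the 3 *age-1* points lie above the 3 WT points, and for *dim-1* the *age-1* points nearly coincide.

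The titin-like genes had the highest median log2 fold change of any role, 0.93, with 1 of 3 called. *unc-89* (C09D1.1, chromosome I from 4035702 to 4090885), which encodes an obscurin-like giant of the M-line, was at 191, 147 and 156 CPM in *age-1* and 42.5, 118 and 67.6 CPM in WT (log2 fold change 1.11, SE 0.32, adjusted p = 0.0357). It had 97.01, 77.1 and 88.0 CPM in *age-1; rde-4* and 81.8, 98.7 and 49.1 CPM in *rde-4*. The lowest *age-1* library stood above the highest WT library, but WT spanned 2.79-fold by itself. *unc-22* (ZK617.1, chromosome IV from 11972697 to 12011007), twitchin, which acts in relaxation, was at 350.1, 234 and 254 CPM in *age-1* and 84.6, 226 and 130.3 CPM in WT (log2 fold change 0.93, SE 0.33, adjusted p = 0.0742). It had 183, 123 and 134 CPM in *age-1; rde-4* and 157, 167 and 85.2 CPM in *rde-4*. WT replicate 2 lay just under *age-1* replicate 2, and the change missed the threshold. *ttn-1* (W06H8.8, chromosome V from 6120909 to 6202632), with the longest exonic length of the members, was at 52.8, 64.8 and 71.4 CPM in *age-1* and 17.2, 62.7 and 37.0 CPM in WT (log2 fold change 0.69, SE 0.37, adjusted p = 0.209), and the groups overlapped. Exons of *unc-22* overlap those of other annotated genes on the same strand.

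Of the 13 attachment genes, 2 rose in *age-1*. *dim-1* (C18A11.7, chromosome X from 8050466 to 8058220), an immunoglobulin-repeat protein at the attachment sites, was at 114, 114 and 115 CPM in *age-1* and 55.6, 92.3 and 56.6 CPM in WT (log2 fold change 0.75, SE 0.17, adjusted p = 0.0186). The *age-1* populations were nearly equal, and WT replicate 2 stood apart from the other two. *dim-1* had 82.8, 87.4 and 76.7 CPM in *age-1; rde-4* and 52.5, 67.8 and 56.7 CPM in *rde-4*. *deb-1* (ZC477.9, chromosome IV from 7085215 to 7094266), the vinculin of the dense body, was at 50.6, 52.1 and 51.7 CPM in *age-1* and 24.2, 40.98 and 34.0 CPM in WT (log2 fold change 0.64, SE 0.20, adjusted p = 0.0466). It had 46.7, 34.0 and 32.9 CPM in *age-1; rde-4* and 32.8, 37.9 and 26.6 CPM in *rde-4*. The call for *deb-1* was lost in 9 of the 12 fits that left out a library, at adjusted p-values of up to 0.172. *unc-52* (ZC101.2, chromosome II from 14647321 to 14684456), the perlecan of the muscle basement membrane, came close to the threshold, with 110.3, 82.6 and 71.4 CPM in *age-1* and 39.2, 69.7 and 44.8 CPM in WT (log2 fold change 0.78, SE 0.25, adjusted p = 0.0509). It had 83.3, 57.0 and 55.9 CPM in *age-1; rde-4* and 52.5, 52.8 and 35.8 CPM in *rde-4*. The groups of *age-1* and WT were separated by a narrow margin at WT replicate 2.

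The subunits of the integrin had unlike values. *pat-2*, the alpha subunit, had a log2 fold change of 0.71 in *age-1* over WT (95% interval 0.13 to 1.30, adjusted p = 0.0886). *pat-3* (ZK1058.2, chromosome III from 3908931 to 3914149), its beta partner, was at 249, 223 and 237 CPM in *age-1* and 216, 241 and 249 CPM in WT, with a log2 fold change of 0.00 and an interval of −0.26 to 0.27. It had 178, 235.46 and 235.10 CPM in *age-1; rde-4* and 220.3, 262 and 260.1 CPM in *rde-4*, so the strains overlapped. PAT-3 pairs with other alpha subunits outside muscle too. The difference between the subunits was not tested. Of the proteins bound to the integrin tail, *pat-6* (parvin) had 0.18, *unc-112* (kindlin) 0.38, *pat-4* (integrin-linked kinase) 0.44 and *unc-97* (PINCH) 0.53, at adjusted p-values of 0.373, 0.0996, 0.101 and 0.0697. Farther inward, the fold change was 0.54 for *atn-1* (alpha-actinin of the dense body), 0.37 for *zyx-1* (zyxin), and 0.47 and 0.55 for the M-line genes *unc-98* and *unc-96*, and none of these passed the threshold.

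Among assembly factors and regulators, *unc-87* and *cpn-3* rose, which both encode calponin-related proteins that bind actin filaments. *unc-87* (F08B6.4, chromosome I from 6761221 to 6767797) had the lowest adjusted p of all members, with 565, 677 and 627 CPM in *age-1* and 383, 489 and 421 CPM in WT (log2 fold change 0.53, SE 0.12, adjusted p = 0.0163). It was at 539.9, 470.01 and 522 CPM in *age-1; rde-4* and 387, 450.3 and 368 CPM in *rde-4*. *cpn-3* (F28H1.2, chromosome I from 3987940 to 3988699) was at 139.9, 166 and 164 CPM in *age-1* and 73.0, 113 and 105 CPM in WT (log2 fold change 0.69, SE 0.17, adjusted p = 0.0215). *unc-68*, the ryanodine receptor that releases calcium, had a log2 fold change of 0.57 (adjusted p = 0.0585). *unc-60* and *unc-45* lay near 0. *unc-60* (C38C3.5, chromosome V from 1475086 to 1479576), which encodes cofilins that sever actin filaments, was at 166, 162 and 162 CPM in *age-1* and 144, 172 and 174 CPM in WT (log2 fold change −0.00, 95% interval −0.23 to 0.23). It had 129.6, 162 and 139 CPM in *age-1; rde-4* and 142, 159.5 and 149 CPM in *rde-4*, and its first exon is shared with another annotated gene, so its level is uncertain. *unc-45*, the myosin chaperone, had a log2 fold change of −0.02 (95% interval −0.25 to 0.20). *unc-45*, *unc-60*, *act-2*, *pat-3* and *pat-6* thus held the 5 smallest absolute fold changes of the 39.

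Other gene lists moved in the same libraries, and their part in the muscle result was not tested. The median centred log2 level of the members was 0.43, 0.44 and 0.36 in *age-1* replicates 1, 2 and 3, and −0.50, 0.15 and −0.20 in WT. That of 134 collagen genes, made by the epidermis in step with the molts, was 0.20, 0.50 and 0.43 in *age-1* and −0.81, 0.11 and −0.43 in WT. That of 14 neuronal genes was 0.37, 0.40 and 0.26 in *age-1* and −0.64, 0.09 and −0.41 in WT. In each of these lists WT replicate 1 was the lowest and replicate 2 the highest WT library, as it was for the members. Of 13 sperm genes, 9 (69.2%) were called higher in *age-1*, with levels of 0.55, 0.97 and 0.51 in *age-1* and −1.69, −0.37 and −1.27 in WT. The 10 oocyte genes did not share this, with −0.03, −0.16 and −0.04 in *age-1* and −0.01, 0.07 and 0.28 in WT, and the 10 intestinal genes had 0.08, 0.12 and 0.18 in *age-1* and 0.19, 0.47 and 0.24 in WT. The intestinal list thus had the same lowest and highest WT replicate, though it was not higher in *age-1*. Summed, collagens took 2.37 to 2.63% of the TMM-scaled total in *age-1* and 1.30 to 2.01% in WT. Neuronal genes took 0.0222 to 0.0232% and 0.0154 to 0.0209%. Sperm genes took 0.00867 to 0.0117% of the TMM-scaled total in *age-1* and 0.00182 to 0.00486% in WT. The summed levels of collagen, neuronal and sperm genes thus lay higher in all *age-1* libraries than in any WT library. Oocyte genes took 0.533 to 0.566% and 0.531 to 0.735%, and intestinal genes 0.138 to 0.164% and 0.183 to 0.197%, in the same order. Every gene of the neuron, sperm, oocyte and intestine lists and 134 of 176 collagens passed the filter on low counts. Of the collagens tested, 31 (23.1%) were called higher in *age-1* and 0 lower, and of the neuronal genes 4 (28.6%) and 0. Over all genes, 12.2% were called higher and 2.58% lower. Muscle transcripts were therefore not the only ones higher in *age-1*.

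**Figure D4:**
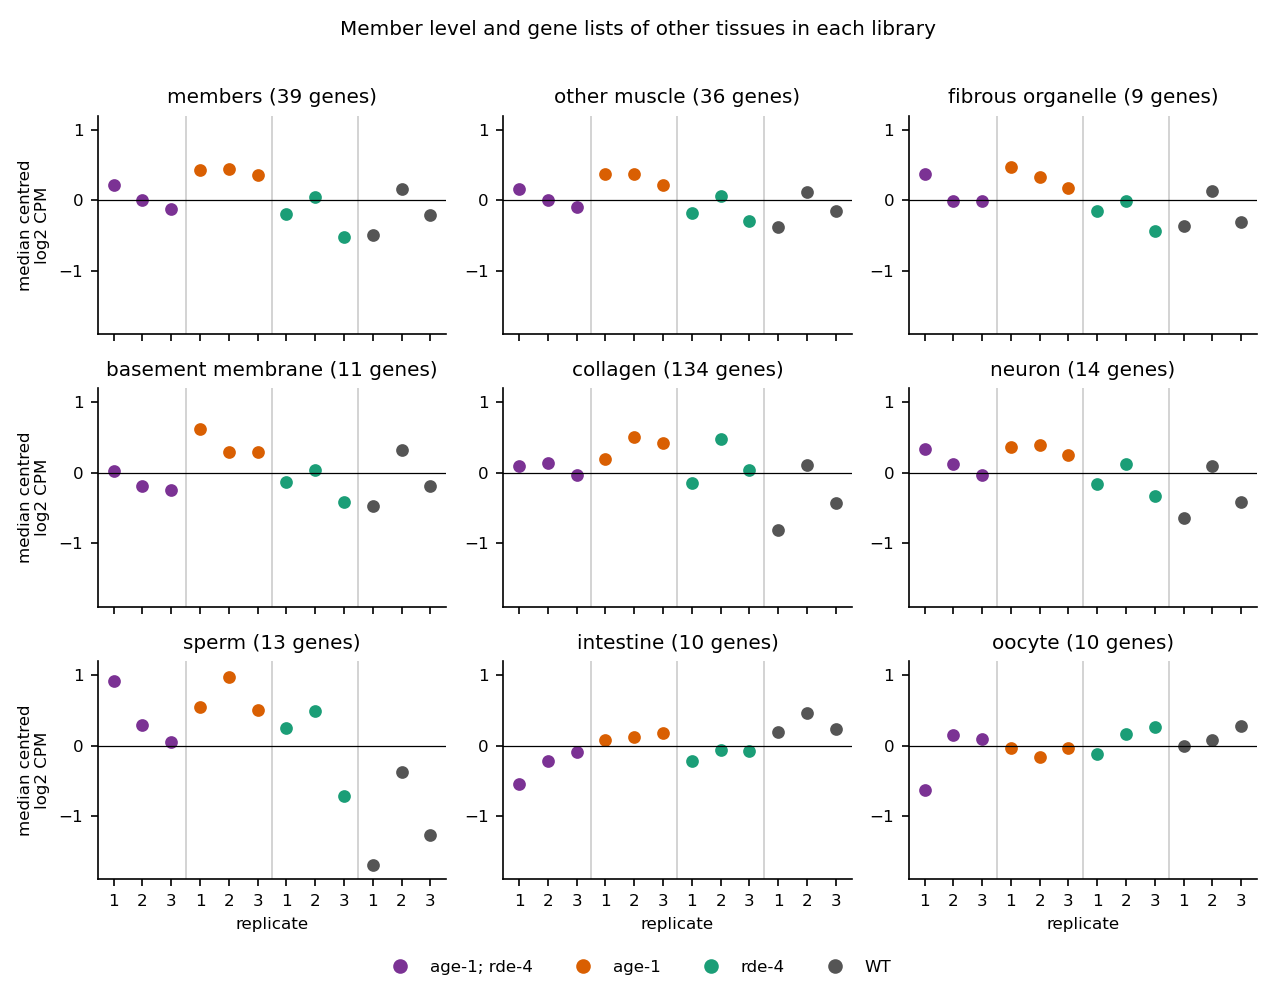
Median over each gene list of the log2 CPM centred on the gene's mean over 12 libraries (y axis), for each worm population (x axis, 3 replicates per strain); the horizontal line is 0. The members and the other muscle, fibrous organelle, basement membrane, collagen, neuron, sperm and intestine lists have their lowest WT value in replicate 1 and their highest in replicate 2. The oocyte list does not.

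Genes that work next to the members were counted from lists. Of 36 other muscle genes (regulators, receptors, channels and further sarcomere proteins), 6 were higher and 0 lower in *age-1* against WT, and the median of their log2 fold changes was 0.47. The share called, 16.7%, was near the 12.2% of all genes. *unc-38*, a subunit of the muscle acetylcholine receptor, had the largest change, with 9.45 ± 2.72 CPM in *age-1* against 1.64 ± 0.442 CPM in WT (SD, n = 3, log2 fold change 2.52, SE 0.42, adjusted p = 0.00571). *alp-1*, a dense body protein of the Enigma family, was at 121 ± 3.49 CPM and 65.8 ± 12.5 CPM (log2 fold change 0.88, SE 0.20, adjusted p = 0.0183). *unc-120*, the SRF-like transcription factor of muscle, was at 7.20 ± 0.956 CPM and 4.42 ± 0.563 CPM (log2 fold change 0.70, SE 0.18, adjusted p = 0.0257). Of 9 fibrous organelle genes in the epidermis, 4 (44.4%) were higher and 0 lower, with a median of 0.47. These include the basal receptor *let-805* (0.76), the apical receptor *mup-4* (0.82) and the spectraplakin *vab-10* (0.62). Of 11 basement membrane genes, 1 (9.09%) was higher and 0 lower, with a median of 0.53, and the called gene was the type IV collagen *let-2* (log2 fold change 0.77, SE 0.23, adjusted p = 0.0419). Of 7 non-muscle actomyosin genes, 0 were called in either direction (edgeR), 1 was higher and 2 lower at an unadjusted p under 0.05, and the median was −0.23.

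With RDE-4 removed in the *age-1* background, the fitted change was below 0 for every member, but no single member was called. In *age-1; rde-4* against *age-1*, 0 of 39 members were called in either direction by edgeR and 0 by DESeq2, beside 0.317% of all genes called higher and 0.108% called lower. All 39 fitted log2 fold changes were below 0, where 41.2% of all genes lay above 0, with a median of −0.33 over the members and −0.06 over all genes. At an unadjusted p under 0.05, 16 members were lower and 0 higher, beside 5.82% and 5.22% of all genes. All *age-1; rde-4* libraries lay below all *age-1* libraries for 20 members, beside 12.4% of all genes, and above them for 0, beside 9.36%. This comparison shares its *age-1* libraries with *age-1* against WT, so the 2 sets of values are not independent. Of 36 other muscle genes 0 were called by edgeR, with 6 lower and 1 higher at an unadjusted p under 0.05 and a median of −0.28. Of 11 basement membrane genes 0 were called, with 6 lower and 0 higher unadjusted and a median of −0.53. Several lists of other tissues lay below 0 too. Of 10 intestinal genes all 10 did, with 1 called lower, 7 lower unadjusted and a median of −0.35. All 9 fibrous organelle genes and 99 of 134 collagens lay below 0, with 0 called by edgeR, and 1 and 23 of them were lower unadjusted. Below 0 were also 12 of 14 neuronal genes (median −0.22) and 10 of 13 sperm genes (median −0.23), with 0 called by edgeR. Oocyte genes were split, with 5 above and 5 below 0 and a median of 0.01. So were non-muscle actomyosin genes, with 3 above and 4 below 0 and a median of −0.02. For 31 of 39 members the *age-1; rde-4* mean lay between the *age-1* and WT means, and the share of all genes with this order was not counted.

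The largest differences of *age-1; rde-4* from *age-1* were in *myo-2* (log2 fold change −1.76, 95% interval −3.07 to −0.45, adjusted p = 0.288), *ttn-1* (−1.03, interval −1.84 to −0.23, adjusted p = 0.315) and *unc-22* (−0.93, interval −1.64 to −0.21, adjusted p = 0.314). *ttn-1* was at 28.9, 34.8 and 28.7 CPM in *age-1; rde-4*, below every *age-1* library and within the WT range. *rde-4* gave 29.8, 52.0 and 25.5 CPM for it. *unc-89* had a log2 fold change of −0.92 (adjusted p = 0.290), and the 3 titin-like genes were the only role in which all members had non-overlapping groups. The smallest unadjusted p was that of *unc-68*, the ryanodine receptor (−0.62, unadjusted p = 0.00599, adjusted p = 0.211). Its levels were 46.8, 41.9 and 38.1 CPM in *age-1; rde-4* and 76.4, 58.3 and 60.1 CPM in *age-1*. *unc-112* and *tni-1* followed, with −0.46 and −0.64. With only these groups in the fit, *unc-89* and *ttn-1* were called lower, and without *age-1; rde-4* replicate 1, *tni-1* was. Among the members with the smallest differences were *act-2* (−0.02, interval −0.33 to 0.28) and *cpn-3* (−0.10, interval −0.46 to 0.26).

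In *age-1; rde-4*, replicate 1 differed from replicates 2 and 3. It was the highest of the strain for 27 of 39 members and the lowest for 8, and its member level was 0.22, −0.00 and −0.13 over replicates 1, 2 and 3. Collagens stood at 0.10, 0.14 and −0.03 and neuronal genes at 0.33, 0.13 and −0.03. The oocyte list stood at −0.63, 0.16 and 0.09, with replicate 1 far below the others, and the sperm list at 0.91, 0.29 and 0.04. The intestine list stood at −0.55, −0.22 and −0.10 in *age-1; rde-4* and 0.08, 0.12 and 0.18 in *age-1*, lower in every *age-1; rde-4* library. The part of these shifts in the muscle values was not tested. The median fold change of the members over *age-1* was between −0.49 and −0.25 with 1 library left out, and −0.49 was the value without *age-1; rde-4* replicate 1.

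Against WT, the double mutant had 1 called member. *cpn-3* was at 155, 144 and 141 CPM in *age-1; rde-4*, above all WT libraries (log2 fold change 0.59, SE 0.17, adjusted p = 0.0373), and *rde-4* gave 93.9, 119.8 and 82.6 CPM. This is 2.56% of the members, beside 8.95% of all genes called higher and 3.17% called lower. The median log2 fold change was 0.18 over the members and −0.02 over all genes, and 31 members lay above 0, beside 48.1% of all genes. At an unadjusted p under 0.05, 3 members were higher (*cpn-3*, *act-4* and *tnt-2*) and 0 lower, beside 15.9% and 10.6% of all genes. The median was 0.03 without *age-1; rde-4* replicate 1, 0.07 without WT replicate 1 and 0.37 without WT replicate 2. All *age-1; rde-4* libraries lay above all WT libraries for 1 member and below them for 0, beside 16.2% and 11.9%. The call for *cpn-3* was lost without WT replicate 1 or 3, without *age-1* replicate 2 or 3 and without *age-1; rde-4* replicate 1, 2 or 3, at adjusted p-values of up to 0.083. Without *age-1; rde-4* replicate 1 the called member was *act-4* in its place, and without WT replicate 2 the called members were *cpn-3*, *act-4*, *dim-1* and *tnt-2*. The largest values that were not called were those of *myo-2* (−0.88, interval −2.17 to 0.42), *act-4* (0.55, adjusted p = 0.0993) and *tni-3* (0.45, adjusted p = 0.299). In the same comparison, 1 of 36 other muscle genes was higher. This was *unc-38*, whose level in *age-1; rde-4* was 17.1 ± 9.24 CPM, with a fold change of 3.38 on the log2 scale (adjusted p = 0.000578). Of the basement membrane genes, the fibulin *fbl-1* was lower (log2 fold change −0.41, SE 0.12, adjusted p = 0.0414). Of the 9 fibrous organelle and 7 non-muscle actomyosin genes 0 were called by edgeR, and at an unadjusted p under 0.05, 3 of the fibrous organelle genes were higher and 1 non-muscle gene lower.

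Adding *age-1(hx546)* to *rde-4* worms gave 0 called members by edgeR and 1 by DESeq2, *cpn-3*. The background of this comparison, *age-1; rde-4* against *rde-4*, was 1.34% of all genes called higher and 0.245% lower. The median log2 fold change was 0.22 over the members and 0.01 over all genes, and 31 members lay above 0, beside 50.6% of all genes. The median was 0.13 without *rde-4* replicate 3, 0.15 without *age-1; rde-4* replicate 1 and 0.37 without *rde-4* replicate 2. All *age-1; rde-4* libraries lay above all *rde-4* libraries for 8 members and below them for 0, beside 10.9% and 9.64%. At an unadjusted p under 0.05, 8 members were higher and 0 lower, beside 8.58% and 5.47% of all genes. These 8 were *cpn-3* (0.57, adjusted p = 0.129), *tni-3* (0.77, adjusted p = 0.192), *unc-87*, *dim-1*, *act-4*, *mlc-2*, *tnt-2* and *unc-98*. *tnc-2* had a log2 fold change as large as that of *tni-3*, but an interval of −0.21 to 1.76. Of the other muscle genes, *unc-38* was higher here too (3.38, adjusted p = 0.00295). In *age-1; rde-4* against *rde-4*, *cpn-3* was called without WT replicate 1, and *dim-1* without WT replicate 2.

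Loss of RDE-4 in the WT background left the members without a call. In *rde-4* against WT, 0 of 39 were called by edgeR or by DESeq2, and 0 had an unadjusted p under 0.05 in edgeR, beside 3.63% of all genes called higher and 0.866% called lower. At an unadjusted p under 0.05 the background was 9.46% higher and 4.96% lower. The median log2 fold change was −0.06 over the members and −0.02 over all genes, and 11 of 39 lay above 0, beside 47.5% of all genes. The sign of the median turned with single libraries, to 0.10 without WT replicate 2 and 0.06 without *rde-4* replicate 3, and it was −0.22 without *rde-4* replicate 2 and −0.19 without WT replicate 1. The *rde-4* and WT libraries overlapped for every member, whereas 8.49% of all genes had all *rde-4* libraries above and 7.81% all below. Both strains had a wide spread, with member levels of −0.19, 0.04 and −0.53 in *rde-4* and −0.50, 0.15 and −0.20 in WT. The largest values were −1.07 for *myo-2* (interval −2.38 to 0.23), −0.46 for *tnc-2* (interval −1.45 to 0.53) and −0.32 for *tni-3* (interval −0.89 to 0.24). *unc-54* had −0.00, with an interval of −0.62 to 0.62. With 3 populations of each strain, a change of the main myosin by an amount within this interval remains possible.

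The interaction asks whether the effect of *rde-4(ne301)* in *age-1* worms differed from its effect in WT worms. None of the 39 members was called by edgeR or by DESeq2, beside 0.0538% of all genes called higher and 0.0597% lower. The median interaction was −0.24 on the log2 scale over the members and −0.06 over all genes, and 3 members lay above 0, beside 43.4% of all genes. The median was −0.14 without WT replicate 1, −0.16 without *rde-4* replicate 2 and −0.38 without WT replicate 2. At an unadjusted p under 0.05, 3 members were lower and 0 higher, beside 8.17% and 3.80% of all genes. These were *tni-1* (−0.82, adjusted p = 0.336), *unc-68* (−0.70, adjusted p = 0.351) and *unc-112* (−0.50, adjusted p = 0.378). The largest values were in the titin-like genes, with −0.92 for *unc-89* (interval −1.89 to 0.04), −0.91 for *ttn-1* (interval −2.04 to 0.22) and −0.82 for *unc-22* (interval −1.83 to 0.19). A difference between the backgrounds was not shown for any single member.

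In several comparisons, fold changes of the members went with the length of the transcript, a pattern noticed after the values were seen. For the 13 members with 3000 bp of exon or more, the median log2 fold change of *age-1; rde-4* over *age-1* was −0.67, against −0.25 for the 26 shorter ones. Over all genes tested with a known length, the medians were −0.15 for long and −0.04 for short genes. In *age-1* over WT the medians were 0.74 for long and 0.49 for short members, and 0.02 and 0.03 over all genes. Across the 39 members, length and fold change had a Spearman rho of −0.60 in *age-1; rde-4* over *age-1* and 0.40 in *age-1* over WT, as a description with shared libraries. Over 16485 genes these values were −0.15 and −0.03. In *rde-4* over WT, rho was 0.09 over the members and 0.01 over all genes. In *age-1; rde-4* it was −0.34 over WT and −0.40 over *rde-4*, beside −0.15 and −0.18 over all genes. For the interaction it was −0.72, beside −0.09. The balance of long against short transcripts also differed between libraries. Over all genes, the median centred level of long genes minus that of short genes was −0.44 in *age-1; rde-4* replicate 1 and between −0.18 and 0.16 in the other 11 libraries. In the members this difference was 0.49, 0.17 and 0.14 in *age-1*, −0.19, −0.18 and −0.11 in *age-1; rde-4*, 0.03, 0.03 and −0.28 in *rde-4*, and −0.35, 0.18 and −0.09 in WT. Its sign in *age-1; rde-4* was therefore the same in replicates 2 and 3, where the difference over all genes was 0.01 and −0.00. The part of this balance in the members' fold changes was not tested.

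**Figure D5:**
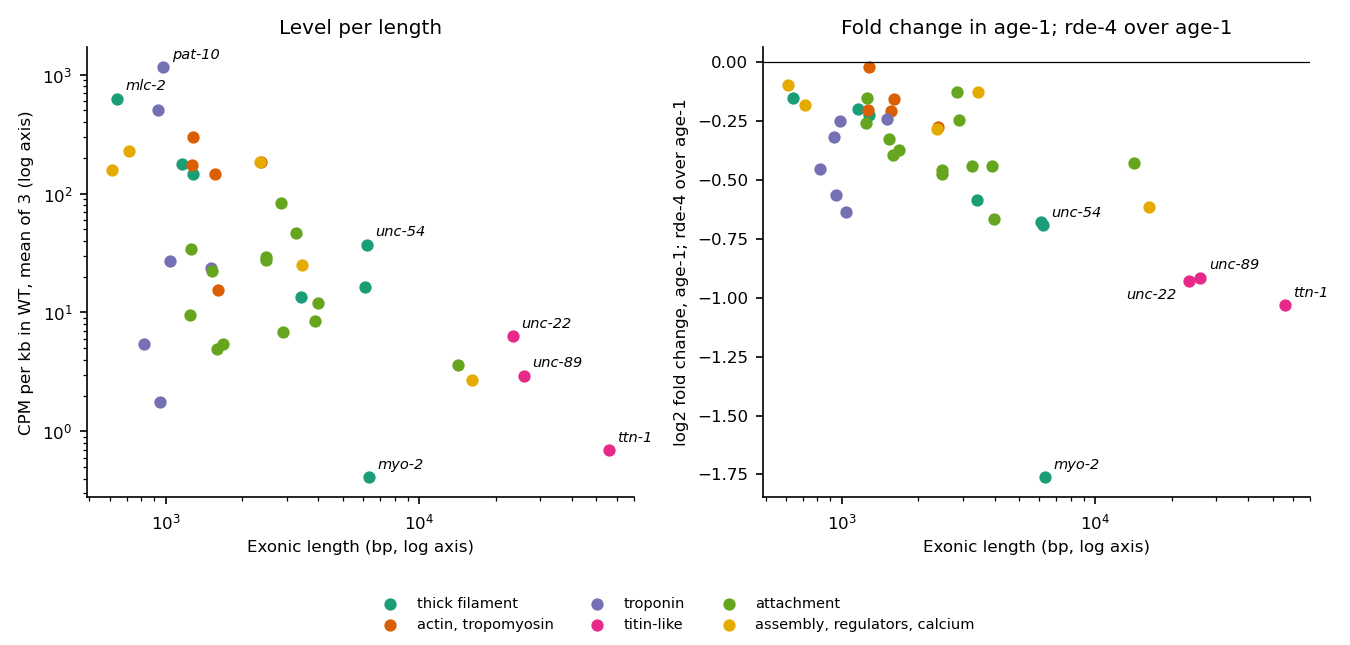
Left, CPM per kb of exon in WT (mean of 3 populations) against exonic length, and right, log2 fold change in *age-1; rde-4* over *age-1* against exonic length, for the 39 members coloured by role; length and CPM per kb have log axes. The longest members sit low in both panels, and the 3 titin-like genes lie between −1.03 and −0.92 on the right. On the left, length is also the divisor of the level.

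Ratios compare members inside 1 library. Per length, *unc-15* stood to *unc-54* at 0.376 ± 0.0076 in *age-1; rde-4*, 0.349 ± 0.014 in *age-1*, 0.363 ± 0.037 in *rde-4* and 0.373 ± 0.032 in WT (SD, n = 3). The paramyosin to myosin ratio of each *age-1; rde-4* library lay just above those of *age-1*, and both strains lay within or near the WT range. The *unc-54* to *myo-3* ratio was 2.67 ± 0.51, 2.63 ± 0.28, 2.38 ± 0.080 and 2.26 ± 0.092 in the same order. The ratio of *unc-54* to *act-1* was less even, with 0.404, 0.304 and 0.269 in *age-1* replicates 1, 2 and 3, against 0.178, 0.267 and 0.184 in WT, where WT replicate 2 nearly reached the lowest *age-1* value. It was 0.233 ± 0.027 in *age-1; rde-4* and 0.217 ± 0.055 in *rde-4*. These ratios were not tested.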

How the data were processed

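Total RNA of whole worms was freed of ribosomal RNA by the authors and turned into stranded libraries, read in pairs of 150 bp. Alignment to WBcel235 used HISAT2 2.0.5, and StringTie gave the quantification. The StringTie version and its strand setting are not given in the sources used here. Exons of the called members *unc-87* and *act-4* overlap those of annotated genes on the opposite strand. So do exons of *act-1*, *act-3*, *mlc-1*, *mlc-2*, *tnc-2*, *unc-22*, *unc-52*, *pat-2* and *unc-112*. *unc-98*, *unc-22* and *unc-60* have such overlaps on the same strand. Reads may be shared at these overlaps. The deposited values are whole-number read counts per gene and library, without normalization. At 74501098 to 82446102 counts per library, counting error is small, and precision is set by the spread over the 3 populations of a strain.

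One edgeR 4.0.16 quasi-likelihood model of the 4 strains over 12 libraries was fitted in R 4.3.3 (filterByExpr, TMM, estimateDisp, glmQLFit, glmQLFTest, two-sided). Benjamini-Hochberg adjustment ran over the 16741 genes tested, with a threshold of 0.05. SE belongs to the fitted log2 fold change, and intervals are at 95%. Exonic lengths and positions come from the Ensembl annotation of WBcel235, release 115, which matched all 39 members and 46181 of 46653 identifiers. No replicates were copies of 1 library by chi-square tests of their counts. The method was tested on simulated counts.

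Members and gene lists were chosen with earlier results of these data known. Named in full were all called members, the 4 actins, the member with the highest level per length of each role, and the 3 largest uncalled fold changes per comparison. In the list of other muscle genes 1 symbol, *tni-2*, was not matched. The limit of 3000 bp between long and short genes was set after the values were seen. Other settings, besides leaving out each library, were RLE scaling, DESeq2 1.42.0, keeping all genes, keeping genes with a mean of at least 50 normalized counts, fitting only the groups compared, and a block for replicate number. Sequences and promoters were not analysed here.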

Additional observations from a re-analysis of the deposited data

How the results depend on the processing

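In *age-1* against WT the 11 called members became 17 with DESeq2, 18 with only the groups compared, 15 with a mean of 50 normalized counts and 5 with no filter on low counts, and stayed 11 with RLE size factors. The share of all genes called higher was 15.8%, 12.6%, 15.4% and 3.90% in the first 4 of these fits, in the same order. With each library left out in turn the count ran from 0 to 27, beside 1.79% to 17.1% of all genes called higher. For *age-1; rde-4* against WT, 1 called member became 2 with DESeq2 or with a mean of 50 normalized counts, 0 with no filter or with only the groups compared, and 0 to 4 with a library left out. For *age-1; rde-4* against *age-1*, 0 lower became 2 with only the groups compared and 0 to 1 with a library left out. For *age-1; rde-4* against *rde-4*, 0 higher became 1 with DESeq2 and 0 to 1 with a library left out. Beyond *age-1* against WT, the share of all genes called in each of these fits is not given here. Those counts are therefore not a result about the members. The cause of the differences between fits was not tested. The near-zero fold change of *act-2* in *age-1* turned to −0.0085 with RLE or DESeq2, and ran from −0.054 (without WT replicate 1) to 0.13 with a library left out. With RLE or with a library left out, all medians of the members moved by less than 0.235, the pooled SD between populations of a strain. This limit is larger than several of the medians themselves. The median of *rde-4* against WT ran from −0.22 to 0.10 within it, so the limit does not show that the medians are stable.

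The labels do not say that replicate numbers pair the samples. Same-numbered libraries of *age-1* and WT had correlations of 0.087 to 0.200, and in no comparison made here did every pair pass 0.1. All 3 pairs of *rde-4* and *age-1*, which were not compared with each other, passed it (0.140 to 0.172). In *age-1* against WT and in *age-1; rde-4* against *age-1*, all 6 libraries correlated best with their own number. With the replicate block, 21 members (and 17.9% of all genes) were higher in *age-1* against WT. The block gave 2 higher members in *age-1; rde-4* against WT and 1 in *age-1; rde-4* against *rde-4*. In *age-1; rde-4* against *age-1* it gave 1 lower member, *myo-2*. Beyond *age-1* against WT, the share of all genes called with the block is not given here. With 3 populations per strain, a member that was not called may still have changed by an amount within its interval.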
